A study of Mus musculus with 2 samples.

Results

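Lgr5, Lgr6, Lrig1, Lhx2, Nfatc1, Tbx1, Plet1, Cd34, Krt15 and Shisa2 are genes used to mark the stem cell compartments of the mouse hair follicle. They were taken by gene symbol and make up 10 of the 32285 genes of the count matrices, each with 1 row. Their unique molecular identifiers (UMIs, 1 per captured RNA molecule) were read in 2 single-cell RNA libraries of dorsal skin from mice on postnatal day 3, an age at which follicles are still forming. The control library was wild type, the other had the genotype label miR-200b induced, and the treatment label of both was Dox (doxycycline). The genetic construct, the promoter or Cre that drives it and the number of animals in a library were not given in the sources used here. Each group was 1 library, so the groups could not be tested against each other, and every difference below is between these libraries.

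The follicle holds several pools of epithelial stem cells along its length. The bulge and the hair germ below it renew the cycling lower follicle, while the isthmus and junctional zone above the bulge serve the upper follicle, the sebaceous gland and the neighbouring epidermis. In the newborn follicle the outer root sheath, the outer layer that is continuous with the epidermis, holds the cells from which these pools arise. Lgr5 and Lgr6 are receptors for R-spondins, secreted proteins that strengthen Wnt signalling; Lgr5 marks the lower outer root sheath, bulge and germ, and Lgr6 marks the isthmus. Lrig1 is a membrane protein that dampens epidermal growth factor receptor signalling, and Plet1 is a surface protein of the isthmus. Lhx2, Nfatc1 and Tbx1 are transcription factors of the bulge. Shisa2 belongs to a family that holds back Wnt and FGF receptors inside the cell, Cd34 is a surface protein of the adult bulge, and Krt15 is a keratin of bulge and basal cells.

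MicroRNA-200b is made from the same locus as microRNA-429 and microRNA-200a. A microRNA pairs with target RNAs mainly through its seed (bases 2 to 8), and the mature sequences are shown here, 5′ to 3′ with the seed in capitals, because the first and second share a seed and the third does not. The sequences are RefSeq's on GRCm38.p6, all on the minus strand of chromosome 4.
mmu-miR-200b-3p (chr4:156055685-156055706): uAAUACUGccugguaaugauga
mmu-miR-429-3p (chr4:156053916-156053937): uAAUACUGucugguaaugccgu
mmu-miR-200a-3p (chr4:156054911-156054932): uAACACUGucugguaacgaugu
The 7-base match to the microRNA-200b seed, CAGTATT on the RNA strand, was found in the annotated 3′ untranslated region (UTR) of 1 of the 10 genes, Nfatc1, which held 2 matches. Among 20903 genes with an annotated 3′ UTR, 15.1% held one. Krt15 had no match in its 259 bases of 3′ UTR. The match to the microRNA-200a seed, CAGTGTT, was found in Lrig1 and Shisa2, 2 of the 10 genes, and in 19.6% of all genes with a 3′ UTR. These windows of the 2 sites are shown on the RNA strand with the match in capitals (GRCm38), since they are the places in these 2 genes where a member of the locus could pair through its seed.
Lrig1 3′ UTR (match at chr6:94605078-94605084, minus strand): tgaggcggaggctgcCAGTGTTggta
Shisa2 3′ UTR (match at chr14:59630561-59630567, plus strand): gggcttttttaaaatCAGTGTTcaag
A match is a description of the sequence. Whether it is used in these cells was not tested.

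There were 9072 control barcodes with 100409201 UMIs and 9114 induced barcodes with 119705137 UMIs. Filtering left 3972 control and 4102 induced epithelial cells (median depth 16091 and 21145 UMIs). The libraries shared 74 barcodes, 7 of them among kept cells. Gm13648, the annotated transcript that spans the microRNA-200b locus, was at 2.20 and 528 CPM (UMIs of a gene in every 1000000 UMIs of the cells) in epithelial cells; mature microRNAs are not read by this assay. The libraries stood apart in the epithelium: in 25 of 37 epithelial clusters, 1 library gave at least 95% of the cells, as in 1 of 13 other clusters. The epithelial clusters came from a second, finer clustering and the others from the clustering of all cells, so these counts are not from the same procedure. A cluster of 1 library may be that library rather than a cell type. Cell classes were therefore named from marker lists, with "-like" added, and all 10 genes were left out of the clustering and of those lists. Of the epithelial cells, 35.1% and 33.7% stayed in clusters without a name. Basal epidermal-like cells made up 14.2% of control and 26.1% of induced epithelial cells, outer root sheath-like cells 22.8% and 20.9%, upper follicle-like cells 8.28% and 5.80%, hair matrix-like cells 3.22% and 1.29%, and sebaceous gland-like cells 12.3% and 0.366%.

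Over all epithelial cells, 8 of the 9 genes whose mean reached 5 CPM were at least 1.5-fold lower in the induced library, and none was higher by that much. Among all 9908 genes with such a mean, 17.3% were lower by 1.5-fold and 10.2% were higher. The median log2 ratio (induced over control) was -1.18 for the 9 genes and -0.11 for all genes. Krt15 differed most, from 3795 to 510.03 CPM (7.44-fold lower, 95% interval 7.37 to 7.51). Shisa2 followed at 35.6 and 9.59 CPM (3.71-fold lower), then Tbx1 at 61.1 and 19.2 CPM (3.19-fold lower), Lrig1 at 79.7 and 32.6 CPM (2.44-fold lower) and Nfatc1 at 61.0 and 27.0 CPM (2.26-fold lower). Lhx2 (163 and 95.4 CPM), Lgr6 (57.6 and 35.1 CPM) and Lgr5 (30.6 and 19.5 CPM) were lower by 1.71-, 1.64- and 1.57-fold. Plet1 was the exception at 129 and 114 CPM, a log2 ratio of -0.18. Cd34 was below the minimum, at 1.35 and 0.723 CPM. All intervals here and below are exact 95% intervals that cover counting error only, with no measure of the spread between animals. A level over all epithelial cells moves with the mixture of classes as well as with the level in each class. The class shares above differed between the libraries. Equal weight was therefore given to the 5 classes with at least 30 cells in both libraries: basal and spinous epidermal-like, upper follicle-like, outer root sheath-like and hair matrix-like. With it, 5 of the 9 genes (Krt15, Tbx1, Lrig1, Shisa2 and Lhx2) and 12.3% of all genes were lower by 1.5-fold. The ratios of Lgr6, Lgr5 and Nfatc1 were -0.57, -0.33 and -0.22 on the log2 scale. The place of Lhx2 in this count rests on hair matrix-like cells (702 and 181 CPM, 53 induced cells). Lhx2 was at 351 and 346 CPM in outer root sheath-like and at 76.6 and 128 CPM in upper follicle-like cells. In the epithelial clusters that were under 95% from 1 library, 6 of the 9 and 29.2% of all genes were lower. The difference was smaller there for Krt15 (log2 ratio -1.84), Tbx1 (-0.80) and Shisa2 (-0.53). It was larger for Lrig1 (-1.62), Lgr6 (-1.60) and Lhx2 (-1.31).

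**Figure D1:**
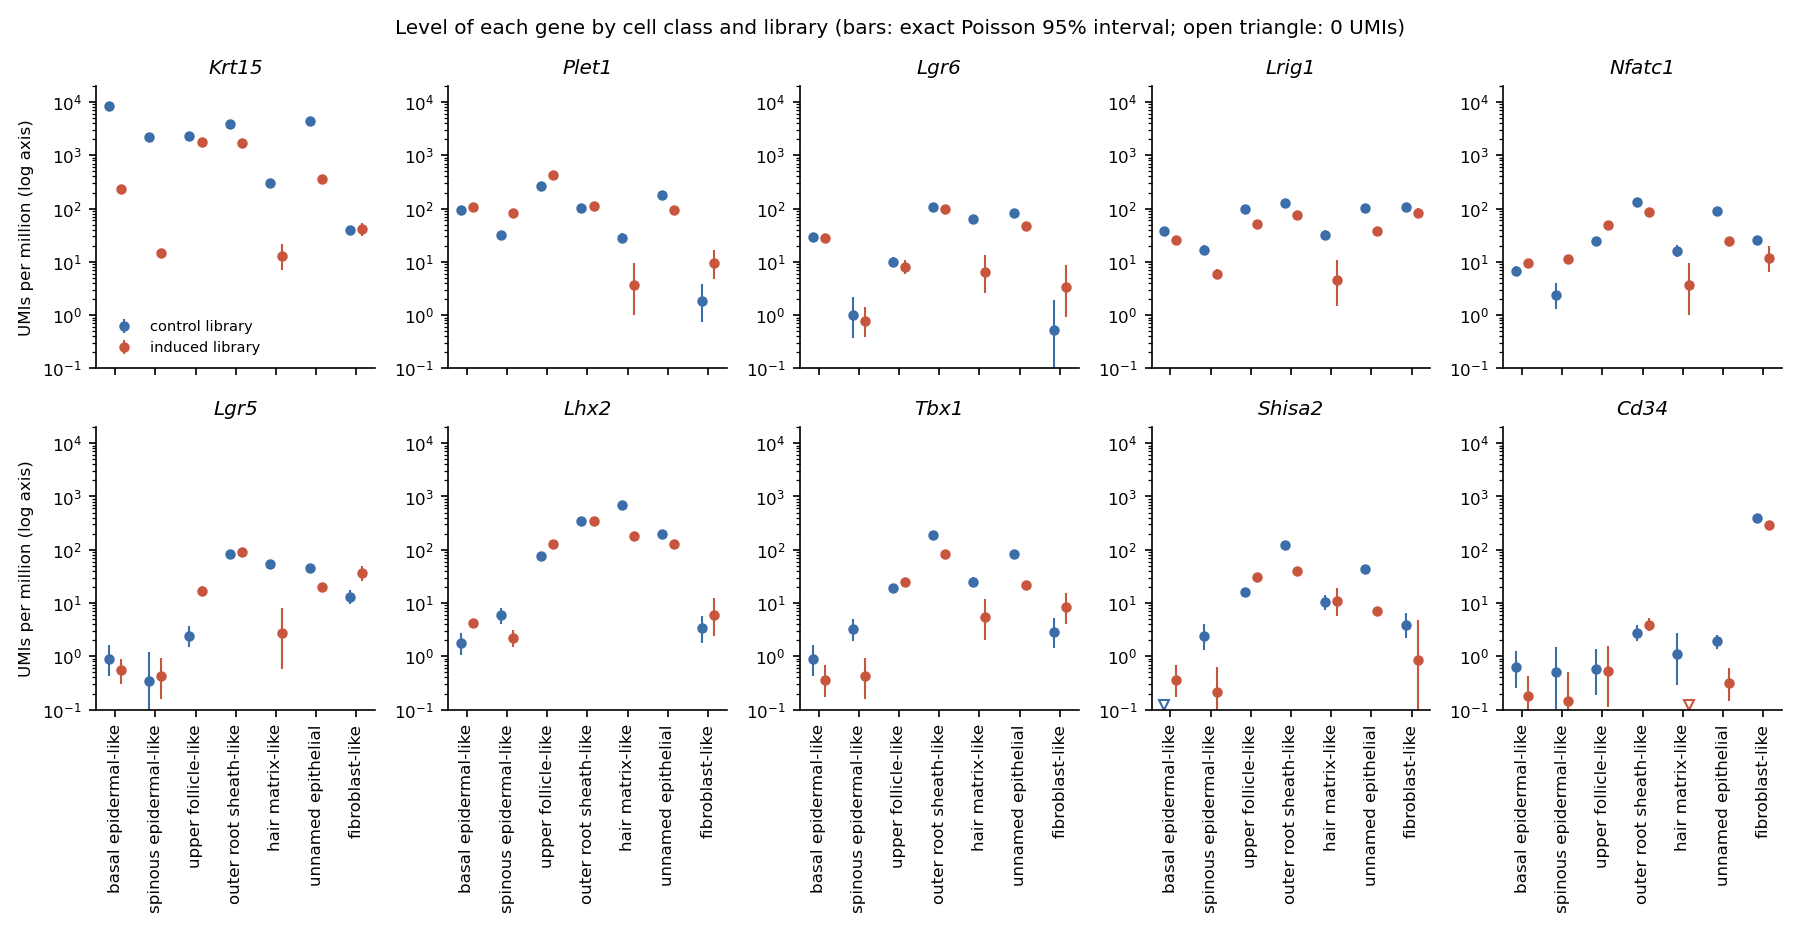
Level of each gene as CPM (log axis) in 7 groups of cells, blue for the control and red for the induced library; points are sums over the cells of a class, bars exact Poisson 95% intervals, open triangles 0 UMIs. Krt15 separates the libraries most in the basal and spinous epidermal-like cells, where the control stands at 8389.8 and 2225 and the induced library at 229 and 14.96.

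The order of classes for Krt15 differed between the libraries. In the control library its level was highest in basal epidermal-like cells (8389.8 CPM), followed by outer root sheath-like (3856 CPM), upper follicle-like (2310.4 CPM), spinous epidermal-like (2225 CPM), sebaceous gland-like (1266 CPM) and hair matrix-like cells (304 CPM), and the intervals of neighbours in this order did not overlap. In the induced library upper follicle-like (1776 CPM) and outer root sheath-like cells (1725 CPM) were highest, with overlapping intervals, and basal epidermal-like cells stood at 229 CPM. Within basal epidermal-like cells Krt15 was 36.7-fold lower in the induced library (35.8 to 37.7), within outer root sheath-like cells 2.24-fold lower (2.20 to 2.27), and within upper follicle-like cells 1.30-fold lower (1.27 to 1.33). The spinous epidermal-like level of 14.96 CPM in the induced library was no higher than the level in cells that should lack this keratin, which was 41.0 CPM in fibroblast-like, 17.5 CPM in endothelial-like and 16.9 CPM in melanocyte-like cells of that library, and hair matrix-like cells (12.9 CPM) were at the same level. These 2 values are read as background. Krt5 and Krt14, the keratin pair of all basal keratinocytes, had log2 ratios of -0.84 and -0.55 in basal epidermal-like cells, compared with -5.20 for Krt15. Basal epidermal-like cells came from different clusters in the libraries, in the control mainly 1 led by H19 and Igfbp2 and 1 led by H19 and cell cycle genes, and in the induced library mainly 3 led by Igfbp2 and Sparc, by cell cycle genes and by the stress genes Nfkbia and Gadd45b. Spinous epidermal-like cells, led by Krt1 in both, also fell into 1 cluster per library. Upper follicle-like cells pooled clusters led by Defb6, Pinlyp and Wfdc18, in different proportions per library. Inside these the log2 ratio of Krt15 was -2.17, -0.15 and 2.05. The part of these cluster differences in the Krt15 result was not tested.

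The difference in Krt15 was seen across the cells of the basal epidermal-like class. The middle control cell of this class had 145 Krt15 UMIs and the middle induced cell 3, although induced cells were the more deeply read (medians of 19168 and 25667.5 UMIs in all). The 10th percentile of control cells in this class, 2885 CPM, lay above the 90th percentile of induced cells, 670.4 CPM. In outer root sheath-like cells the ranges overlapped, with medians of 3536 and 1495 CPM and a 90th percentile of 4035 CPM in the induced library. Upper follicle-like cells had 10th percentiles of 0 and 90th percentiles of 6452 and 5230.3 CPM, with medians of 723 and 351 CPM. The type I keratins are a family of similar genes, and how reads shared between them were counted is not given in the sources used here.

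**Figure D2:**
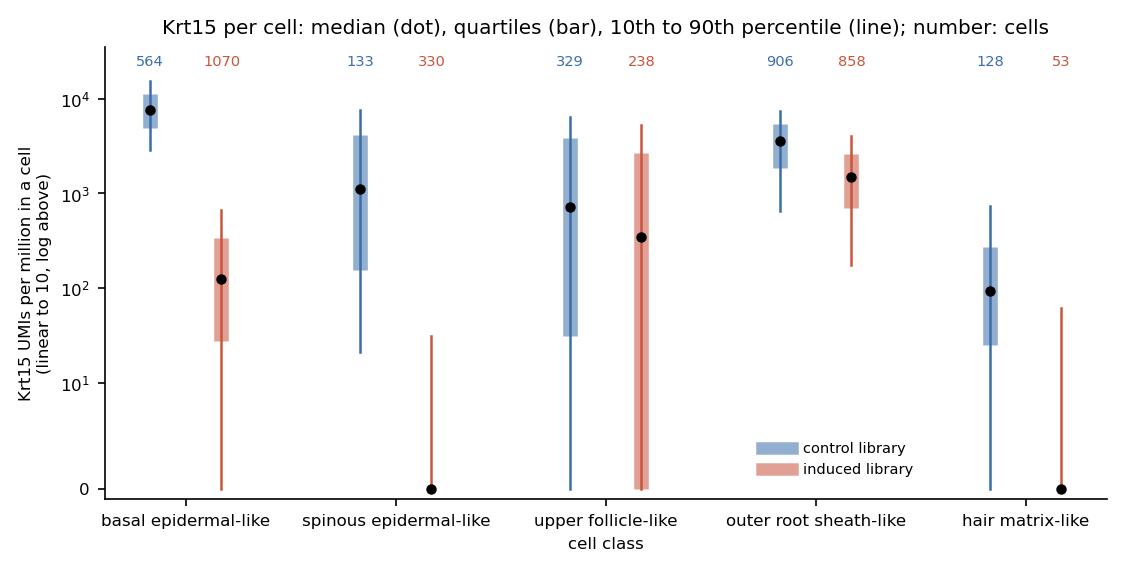
Krt15 CPM in single cells (axis linear to 10 and logarithmic above) in 5 classes, blue for control and red for induced; dots are medians, thick bars quartiles, thin lines the 10th to 90th percentile, and the figures on top the number of cells. Control and induced cells do not overlap between these percentiles in the basal epidermal-like class and overlap in the outer root sheath-like and upper follicle-like classes.

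Plet1, Lgr6 and Lrig1, the genes of the isthmus and junctional zone, kept much of their order of classes. Plet1 was highest in upper follicle-like cells in both libraries, at 264 CPM (253 to 275) in the control and 430.4 CPM (413 to 448) in the induced library, and outer root sheath-like cells (104 and 112 CPM) did not differ from basal epidermal-like cells (95.2 and 107 CPM) beyond their intervals. Its level in spinous epidermal-like cells was 32.5 and 81.3 CPM, with a log2 ratio of 1.32 (1.10 to 1.55). Fibroblast-like cells had 1.83 and 9.40 CPM of Plet1. Lgr6 was highest in outer root sheath-like cells, at 105 and 98.0 CPM (log2 ratio -0.10, -0.21 to 0.01), and was present in basal epidermal-like cells at 28.6 and 27.8 CPM (log2 ratio -0.04, -0.23 to 0.15). Neither ratio differed from 0 beyond counting error. The lower Lgr6 level over all epithelial cells therefore had no counterpart in these 2 classes. In the control library Lgr6 was also at 64.1 CPM in hair matrix-like and 55.9 CPM in sebaceous gland-like cells, whose intervals overlapped. Hair matrix-like cells of the induced library had 6.43 CPM of Lgr6, so this class changed its place in the order. In upper follicle-like cells Lgr6 was at 9.91 and 7.98 CPM, below basal epidermal-like cells in both libraries. Lrig1 had the same pair of leading classes in both libraries, outer root sheath-like cells (128 and 77.1 CPM) and upper follicle-like cells (96.4 and 51.6 CPM), and was lower in the induced library in each, by 1.66-fold (1.53 to 1.80) and 1.87-fold (1.63 to 2.14). Basal epidermal-like cells had 38.6 and 25.9 CPM of Lrig1, 1.49-fold lower (1.32 to 1.68). This gene was not restricted to epithelium, since fibroblast-like cells had 109 and 83.7 CPM, while endothelial-like cells had 5 and 0 UMIs.

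Lgr5, Lhx2, Tbx1, Shisa2 and Nfatc1, the genes of the lower outer root sheath, bulge and germ, were highest in outer root sheath-like or hair matrix-like cells in both libraries. Their levels in basal and spinous epidermal-like cells were under 12 CPM. Tbx1 was at 0.883 and 0.366 CPM in basal epidermal-like cells (10 UMIs in each library) and at 189 and 83.9 CPM in outer root sheath-like cells, where the induced library was 2.25-fold lower (2.10 to 2.42). Shisa2 had no UMI in 564 control basal epidermal-like cells, which allows up to 0.265 CPM by the limit of 3 counts, and 10 UMIs in 1070 induced ones. In outer root sheath-like cells it stood at 121 and 40.2 CPM, 3.02-fold lower (2.73 to 3.34). Lgr5 and Lhx2 did not share this difference: outer root sheath-like cells had 84.1 and 91.8 CPM of Lgr5 (log2 ratio 0.13, 0.01 to 0.25) and 351 and 346 CPM of Lhx2 (log2 ratio -0.02, -0.08 to 0.04). Nfatc1, at 134 and 84.5 CPM, was 1.59-fold lower (1.47 to 1.71). Outside this class the control order for Nfatc1 went to sebaceous gland-like cells (57.7 CPM) and then upper follicle-like cells (25.01 CPM), and in the induced library upper follicle-like cells came next (49.5 CPM). The induced library held 15 sebaceous gland-like cells, too few to be placed in that order.

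Hair matrix-like cells, the dividing cells at the base of the follicle that build the hair, had the highest control level of Lhx2, at 702 CPM (675 to 729). In the 53 induced cells of this class Lhx2 was at 181 CPM (157 to 208), behind outer root sheath-like cells. Lgr5 had 197 UMIs in 128 control cells (53.3 CPM) and 3 UMIs in the induced cells (2.76 CPM, 19.3-fold lower, 6.52 to 94.5). Lgr6 (64.1 and 6.43 CPM), Lrig1 (32.5 and 4.596 CPM), Tbx1 (25.2 and 5.51 CPM), Nfatc1 (16.2 and 3.68 CPM) and Plet1 (28.4 and 3.68 CPM) were also lower, each resting on 4 to 7 induced UMIs. Shisa2 was at 10.6 and 11.03 CPM, and its log2 ratio of 0.06 (-1.01 to 1.03) did not differ from 0. All cells of this class came from 1 cluster, led by Krt35, in both libraries. In all, 8 of 9 genes were at least 1.5-fold lower there and 0 were higher, against 20.3% and 19.6% of all genes. With doublets kept, without centring and at resolution 0.8 these counts were 6 lower (18.4% to 19.7% of all genes) and 1 higher (19.1% to 20.4%), the latter Shisa2, whose log2 ratio was 0.65 to 0.70 under those settings and -0.58 at resolution 2.5. The control class changed in size with the processing, to 68 cells with doublets kept, 62 without centring, 59 at resolution 0.8 and 171 at resolution 2.5, while the induced class had 50 to 58 cells. Over these the log2 ratio of Lgr5 was -4.71 to -3.35, that of Lgr6 -3.35 to -3.22, that of Lrig1 -3.52 to -1.895 and that of Lhx2 -1.91 to -1.78. Plet1 turned to 0.39 with doublets kept, and Nfatc1 was at -0.52 to -0.27 under the settings with the smaller control class.

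Cd34 was nearly absent from the epithelium at this age, with 105 UMIs in control and 71 UMIs in induced epithelial cells. It was at 1163 and 808 CPM in endothelial-like cells and at 386 and 290.1 CPM in fibroblast-like cells, both known to carry this protein. Outer root sheath-like cells had 2.80 CPM (1.95 to 3.89) and 3.91 CPM (2.92 to 5.13), with overlapping intervals. Among epithelial clusters of at least 30 cells in a library, the highest level was 28.3 CPM in an unnamed control cluster led by Nppc and Sfrp1 (98 cells). This cluster also had high Lhx2 (672 CPM), Tbx1 (397 CPM) and Shisa2 (314 CPM). The next within the control library was 11.7 CPM in an outer root sheath-like cluster led by Sfrp1 and Tbx1. In the induced library the highest was 16.4 CPM in an outer root sheath-like cluster led by Lhx2 and Tbx1. Among clusters of at least 30 cells, these are also the ones with the highest Tbx1 in their library. Melanocyte-like cells, which had no Cd34 UMI in either library, had 72.3 and 29.7 CPM of Shisa2.

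In outer root sheath-like, basal epidermal-like and upper follicle-like cells fewer genes were lower by 1.5-fold than over all epithelial cells. In outer root sheath-like cells 5 of 9 genes whose mean reached 5 CPM were lower (Lrig1, Nfatc1, Tbx1, Krt15 and Shisa2) and 0 were higher, against 17.6% lower and 11.1% higher of all genes. In basal epidermal-like cells 5 genes reached 5 CPM (Krt15, Plet1, Lrig1, Lgr6 and Nfatc1), of which 1, Krt15, was lower and 0 were higher, against 13.0% and 12.4% of all genes. Upper follicle-like cells went the other way, with 1 of 9 lower (Lrig1) and 5 of 9 higher (Lgr5, Lhx2, Nfatc1, Plet1 and Shisa2), against 13.9% and 11.8% of all genes. This class pooled clusters led by Defb6 (166 control and 64 induced cells), Pinlyp (76 and 114) and Wfdc18 (87 and 60). In the Pinlyp and Wfdc18 clusters the log2 ratio was 0.60 and -0.09 for Lhx2, and -0.12 and 0.54 for Shisa2. For Lgr5 it was 2.33 and 2.37. The part of the cluster mixture in the class values was not tested. The higher Lgr5 in that class rested on 21 control and 95 induced UMIs (2.42 and 16.8 CPM), and fibroblast-like cells had 13.1 and 35.9 CPM. This count for upper follicle-like cells changed with the processing: with doublets kept, 1 gene was higher and 2 were lower (10.8% and 14.5% of all genes), and with finer clustering (resolution 2.5) the same counts were found (8.42% and 17.7% of all genes). In contrast, Krt15 in basal epidermal-like cells, and Krt15, Tbx1, Shisa2 and Nfatc1 in outer root sheath-like cells, were at least 1.5-fold lower under each of the 5 other clusterings and filters tried. Over these the log2 ratio of Krt15 was -5.11 to -4.65 in basal epidermal-like cells, that of Tbx1 in outer root sheath-like cells -1.78 to -0.96, that of Shisa2 -2.19 to -1.49 and that of Nfatc1 -1.401 to -0.67. Krt15 in upper follicle-like cells ranged from -1.30 to -0.35. Lrig1 in outer root sheath-like cells had log2 ratios from -0.73 to -0.20 over them, and Lrig1 in upper follicle-like cells from -1.42 to -0.88. With 1 library per group, an effect of the induction and a difference between these animals, dissections or libraries cannot be told apart.

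**Figure D3:**
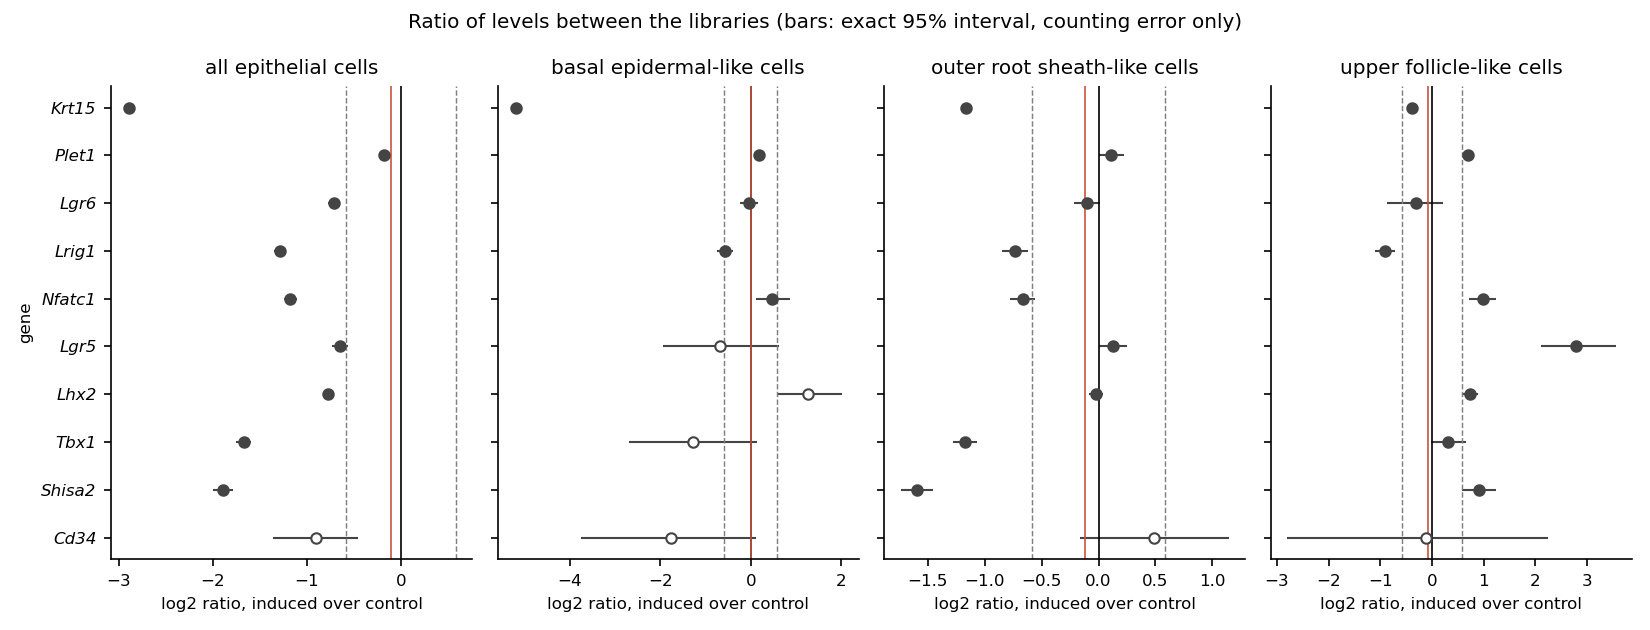
Log2 ratio of the induced over the control level for the 10 genes in all epithelial cells and in 3 classes, with exact 95% intervals; open circles have a mean under 5 CPM, dashed lines mark 1.5-fold, the red line is the median of all genes with that mean, and the x axes differ. All genes but Plet1 lie past the lower dashed line over all epithelial cells, Cd34 as an open circle, while in outer root sheath-like cells Lgr5, Lhx2, Lgr6 and Plet1 lie near 0.

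The outer root sheath-like class was not uniform, and the genes divided it. In the control library it was mainly 3 clusters. The one led by Pthlh, Fst and heat shock genes (245 cells) had 151 CPM of Lgr6, 163 CPM of Lrig1 and 190.4 CPM of Plet1, but 11.97 CPM of Lgr5, 12.7 CPM of Tbx1 and 3.67 CPM of Shisa2. The one led by Sfrp1 and Tbx1 (235 cells) was the reverse, with 129.8 CPM of Lgr5, 459 CPM of Tbx1, 298 CPM of Shisa2 and 615 CPM of Lhx2, but 45.7 CPM of Lgr6 and 27.1 CPM of Plet1. The cluster led by Edn2 and Col14a1 (340 cells) lay between them, with 129.6 CPM of Lgr5, 191 CPM of Tbx1 and 93.4 CPM of Lgr6. The induced class was also mainly 3 clusters. The one led by Pthlh and Fst (385 cells) had 152 CPM of Lgr6 and 133 CPM of Plet1 beside 52.5 CPM of Lgr5, 26.1 CPM of Tbx1 and 10.1 CPM of Shisa2. The one led by Lhx2 and Tbx1 (176 cells) had 197 CPM of Lgr5, 686 CPM of Lhx2, 203 CPM of Tbx1 and 89.9 CPM of Shisa2. The last, led by Cebpd and Adamts1 (262 cells), had 87.8 CPM of Lgr5, 424 CPM of Lhx2 and 61.8 CPM of Tbx1. Plet1 was at 83.0 CPM in the Lhx2 cluster and 101 CPM in the Cebpd cluster, nearer to the Pthlh cluster than in the control. Clusters high in Lgr6 and clusters high in Tbx1 and Lhx2 were thus present in both libraries, and Krt15 was high in both kinds: 4906 and 4389 CPM in the Pthlh and the Sfrp1 cluster of the control, and 1702 and 2694 CPM in the Pthlh and the Lhx2 cluster of the induced library.

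Because most of these clusters held 1 library, the ratios were also taken inside the 10 epithelial clusters with at least 15 cells of each library, a choice made after the data had been seen. Krt15 was at least 1.5-fold lower in 8 of the 10 and higher in 1, an upper follicle-like cluster led by Wfdc18 and Krt6a (372 and 1537 CPM). Lrig1 was lower in 8 of 10 and higher in 1, an unnamed cluster led by Pclaf of 29 control and 41 induced cells. Nfatc1 was lower in 4 of 10 and higher in 2, Tbx1 lower in 3 of 8 and higher in 2, and Lhx2 lower in 3 of 8 and higher in 2. Lgr5 was lower in 1 of 8, the hair matrix-like cluster, and higher in 4. Lgr6 was lower in 1 of 8 and higher in 2, and Plet1 was lower in 2 of 9 and higher in 4. Shisa2 was lower in 1 of 7, a shallow unnamed cluster led by Col3a1, and higher in none. These counts take the ratio alone, and some rest on few UMIs. In the Pclaf cluster Lrig1 had 5 control and 9 induced UMIs and Tbx1 had 8 and 1. In the Col3a1 cluster Tbx1 had 6 and 9 UMIs, and the intervals of these ratios include 0. Lgr5 had 1 and 3 UMIs in the cluster led by Krtap17-1. The share of all genes past 1.5-fold was not counted inside single clusters. In the unnamed cluster led by Nppc and Sfrp1, Shisa2 was at 314 and 415 CPM and Tbx1 at 397 and 295 CPM. In the mixed outer root sheath-like cluster led by Krtap17-1 and Tgfb2, Shisa2 was at 286 and 402 CPM and Tbx1 at 234 and 637 CPM, resting on 19 induced cells. The log2 ratio of Tbx1 there, 1.45 (1.08 to 1.81), had the opposite sign to that of the outer root sheath-like class. Krt15 and Lrig1 were thus lower in most of these clusters. The differences of Shisa2, Tbx1, Lgr5, Lgr6, Lhx2 and Nfatc1 over all epithelial cells were not seen at 1.5-fold in most of them.

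**Figure D4:**
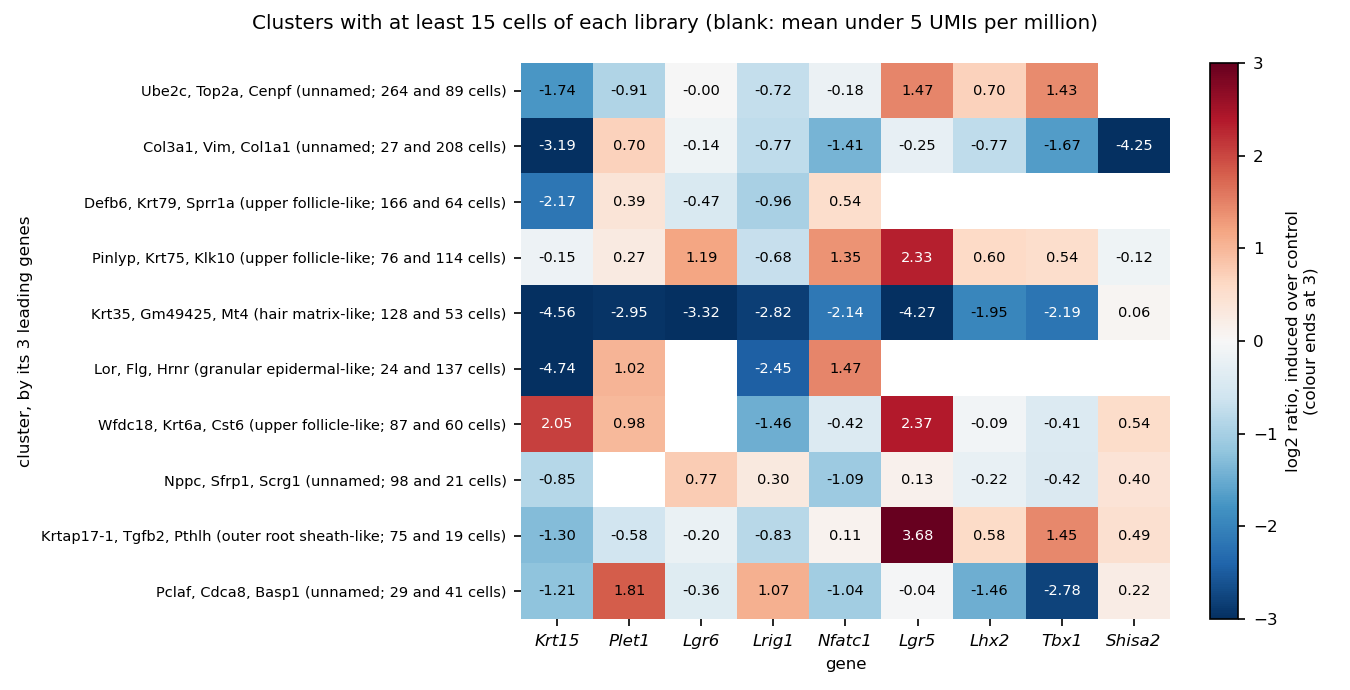
Log2 ratio of the induced over the control level inside the 10 epithelial clusters with at least 15 cells of each library, named by their 3 leading genes; blue is lower and red higher in the induced library, and fields are blank where the mean was under 5 CPM. The Krt15 and Lrig1 columns are blue in most rows, and the row of the hair matrix-like cluster is blue for every gene but Shisa2.

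Shares of cells with a UMI were compared after each cell was thinned to 5000 UMIs, which left out 208 control and 399 induced epithelial cells that were shallower. Krt15 was detected in 88.6% (87.5 to 89.6) of control and 53.3% (51.7 to 54.9) of induced epithelial cells, against 16.5% and 11.1% of fibroblast-like cells (median 11426 and 8539.5 UMIs before thinning, against 16601 and 22656 in the epithelial cells). Unthinned epithelial cells had shares of 93.4% and 69.0%. Tbx1 was detected in 22.0% and 8.88%, Shisa2 in 15.3% and 5.43%, Nfatc1 in 25.4% and 13.7%, and Lrig1 in 32.5% and 17.7% of epithelial cells. Fibroblast-like cells had Tbx1 in 0.971% and 1.85%, Shisa2 in 1.29% and 0 of 108 cells (which allows up to 2.78%), Nfatc1 in 9.39% and 5.56%, and Lrig1 in 40.5% and 29.6%. Lhx2 was detected in 35.8% and 25.03%, Lgr6 in 23.2% and 17.9%, and Lgr5 in 13.1% and 10.3% of epithelial cells. Fibroblast-like cells had Lhx2 in 1.62% and 2.78%, and Lgr6 in 0 of 309 cells (which allows up to 0.971%) and 0.926%. They had Lgr5 in 3.56% and 8.33% (3.88 to 15.2), and the induced epithelial share of Lgr5 lies inside the latter interval. Plet1 was detected in more induced than control cells, 36.1% (34.6 to 37.7) against 32.1% (30.7 to 33.7), although its summed level was slightly lower. Thinned to 2000 UMIs the order turned, to 16.9% (15.8 to 18.2) against 18.2% (17.0 to 19.4), so no order is read from these shares. Cd34 was detected in 1.14% and 0.567%. In outer root sheath-like cells Tbx1 went from 48.6% to 25.8% and Shisa2 from 37.7% to 16.1%, while Lgr5 (28.3% and 33.3%) and Lgr6 (34.3% and 35.5%) had overlapping intervals.

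A cell could carry several of the genes at once. Among thinned epithelial cells the mean number of the 10 genes with a UMI was 2.89 in the control and 1.89 in the induced library, and 18.7% and 7.64% of cells had 5 or more. Of the 5 epithelial classes compared, outer root sheath-like cells carried the most, with means of 4.25 and 3.67, and 43.0% and 27.3% of them had 5 or more. Sebaceous gland-like and unnamed cells were not among these classes. The highest number in any cell was 9 in the control and 8 in the induced library. Fibroblast-like cells, which carry Cd34 and Lrig1, had means of 1.53 and 1.22. Of the basal epidermal-like cells, 99.8% of control and 78.0% of induced cells had at least 1 of the genes.

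Co-detection was described for the 45 pairs as the number of cells with both genes over the number that the product of the 2 shares gives, so that 1 means no association. Over all epithelial cells Tbx1 and Shisa2 were the most associated pair without Cd34 in both libraries, found together in 405 control cells against 126.6 from the product (ratio 3.20, 2.89 to 3.52) and in 121 induced cells against 17.9 (ratio 6.78, 5.62 to 8.10). Lgr5 and Tbx1 had ratios of 2.45 and 3.73, and Lhx2 and Tbx1 of 2.34 and 3.46. A ratio over all epithelial cells can also reflect the mixture of classes, so the pairs were followed within 1 class. That class is itself a mixture of clusters that differ in Tbx1, Shisa2, Lgr5 and Lgr6, as described above. Ratios within it can therefore reflect the mixture of its clusters, and how far they do was not tested. Within outer root sheath-like cells the Tbx1 and Shisa2 ratio was 1.47 (1.29 to 1.68) and 2.53 (2.02 to 3.12), the Lhx2 and Tbx1 ratio 1.32 and 1.44, and the Lgr5 and Tbx1 ratio 1.39 and 1.37. Lgr6 and Tbx1 were found together less often than the product there, with ratios of 0.686 (0.556 to 0.837) and 0.642 (0.473 to 0.851). Lgr5 and Lgr6 had ratios of 0.668 (0.503 to 0.869) and 0.902 (0.723 to 1.11), the second of which does not differ from 1. Plet1 was found with Shisa2 less often than the product in the control library (0.630, 0.478 to 0.814), and in the induced library this ratio was 0.894 (0.647 to 1.204). Lgr6 and Nfatc1 were found together more often than the product in both libraries (1.24, 1.05 to 1.46, and 1.25, 1.04 to 1.504). Ratios of Krt15 with the 8 genes other than Cd34 lay between 0.96 and 1.06 in this class, where Krt15 was found in 96.1% and 90.1% of cells.

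**Figure D5:**
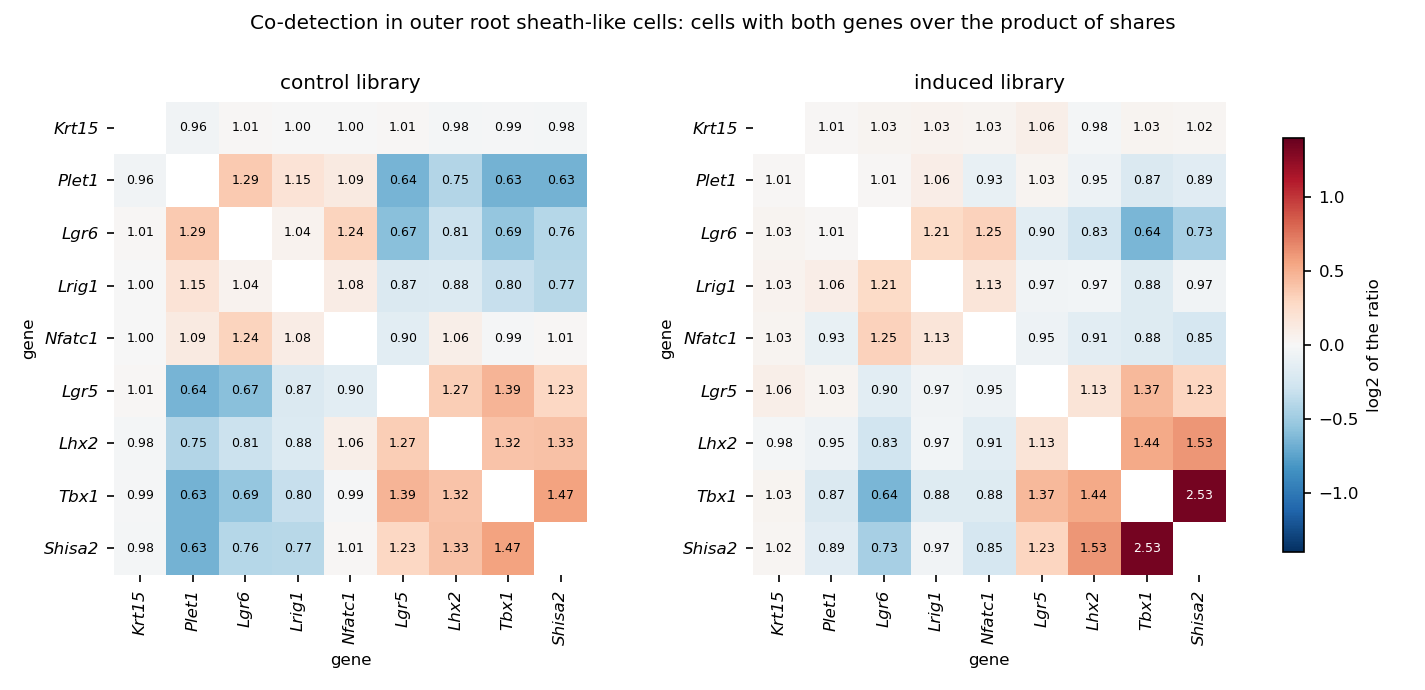
Co-detection within outer root sheath-like cells thinned to 5000 UMIs, for 9 of the genes in each library; each field gives the cells with both genes over the number from the product of their shares, red above 1 and blue below 1. Lgr5, Lhx2, Tbx1 and Shisa2 form a red block in both libraries, and Lgr6 is blue against Tbx1 and Shisa2 in both.

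Levels were also compared across clusters. Over the 21 control and 19 induced epithelial clusters with at least 30 cells in that library, Pearson correlations of log2(CPM + 5), given as a description of clusters that share a library and its depth, were 0.98 and 0.88 for Shisa2 and Tbx1, and 0.91 and 0.91 for Lhx2 and Tbx1. Lgr5 and Lgr6 correlated at 0.36 and 0.61 and Lgr6 and Tbx1 at 0.21 and 0.38, positive across clusters although these pairs were below 1 within outer root sheath-like cells. Lgr6 and Plet1 were at 0.24 and -0.072. Krt15 and Lrig1 correlated at 0.25 in the control and 0.93 in the induced library, and Krt15 and Nfatc1 at 0.19 and 0.82. Of 6005 other genes whose mean reached 20 CPM, 6330403K07Rik was the most like both Lhx2 (0.92 and 0.95) and Tbx1 (0.91 and 0.90) by the lower of the 2 libraries' correlations. Slc16a7 came next for Lhx2, and Cdc42ep3 was the closest to Shisa2. Lgr5 was followed by the matrix genes Col14a1 (0.91 and 0.87) and Bgn (0.86 and 0.91). Lgr6 was followed by Sh3bgrl and by the matrix gene Fbln2, Lrig1 by the cytokine receptor gene Lifr and by Rbms3, and Nfatc1 by the semaphorin gene Sema3e and by Rbms3. Plet1 had less close partners, Rtkn (0.75 and 0.74) and Efhd2 (0.93 and 0.69), and so did Krt15, with the splicing regulator Mbnl2 (0.77 and 0.76) and Postn (0.73 and 0.77).

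A list of 20 other genes linked to hair follicle stem cells and to Wnt receptor turnover was followed alongside. Over all epithelial cells 16 of them reached 5 CPM, of which 6 were at least 1.5-fold lower and 0 were higher (17.3% and 10.2% of all genes), with a median log2 ratio of -0.38 (-0.11 for all genes). Of 17 tested in outer root sheath-like cells, 5 were lower and 5 higher, against 17.6% and 11.1% of all genes. Basal epidermal-like cells had 3 of 13 lower and 4 higher (13.0% and 12.4% of all genes), and upper follicle-like cells 2 of 15 lower and 4 higher (13.9% and 11.8%). In hair matrix-like cells 9 of 16 were lower and 2 higher (20.3% and 19.6%). The 2 lower genes in upper follicle-like cells and the 2 higher in hair matrix-like cells were no more than the share of all genes. Foxc1, a transcription factor of bulge quiescence, was at 45.1 and 11.4 CPM (log2 ratio -1.99), and Sfrp1, a secreted Wnt inhibitor, at 66.2 and 17.6 CPM (-1.91). Nfib, a transcription factor of bulge cells, was at 884 and 363 CPM (-1.28), and its 3′ UTR held 3 matches to the microRNA-200b seed. Tcf7l2 (96.2 and 47.8 CPM) and Tcf7l1 (20.8 and 12.2 CPM), which bind DNA in the Wnt pathway, had log2 ratios of -1.01 and -0.77. Lrig2, a relative of Lrig1, was at 10.4 and 6.69 CPM (-0.64). Of the 20 genes, 5 held a microRNA-200b seed match, against 15.1% of all genes with a 3′ UTR. Of those 5, Nfib and Lrig2 were lower, Runx1 and Prdm1 had log2 ratios of -0.059 and 0.022, and Wif1, whose mean was under 5 CPM, was at 2.59 and 5.65 CPM (log2 ratio 1.13). Within classes, Nfib was at least 1.5-fold lower and Runx1, Wif1 and Prdm1 higher in outer root sheath-like cells. In hair matrix-like cells Nfib was lower and Wif1 and Prdm1 higher. Nfib and Lrig2 were lower in basal epidermal-like cells, and Lrig2 was lower and Prdm1 higher in upper follicle-like cells.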

How the data were processed

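The deposited values were raw UMI counts per gene and barcode in 10x Genomics 3′ libraries, which the authors made with Cell Ranger 6.0.0 on mm10, per the submitters' processing notes. Per the labels' protocols, epidermal and dermal cell suspensions were mixed 30 to 70 before loading. The cell-calling and multi-mapping settings and a cell type annotation were not given in the sources used here.

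Barcodes were kept with at least 1000 UMIs, 500 genes and under 15% mitochondrial UMIs, which left 5178 control and 5258 induced barcodes. The automatic Scrublet threshold (scanpy 1.11.5) marked 7 and 6 of them and was not usable, so the 7% with the highest scores were removed in each library, leaving 4816 and 4890 cells with median counts of 14612.5 and 17918.5 UMIs. All cells were clustered with leidenalg 0.10.2 (30 principal components, 15 neighbours, resolution 1.0) without centring by library. Clusters with at least 3000 CPM of keratins were called epithelial. The epithelial cells were then clustered again at resolution 1.5, on genes variable in both libraries and after each gene was centred within its library. A cluster was named from 24 marker lists when at least 3 markers reached 25% of its cells and a level 1.5-fold above that of the library's other cells (20 CPM added). It stayed unnamed when another class led its 10 leading genes, or when its median depth was under 1/3 of that of its library without a marker among them. These thresholds were set with the data seen, and the 10 genes and all lists were chosen with earlier results of these data known.

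UMIs were summed per class and library and scaled to CPM with exact Poisson intervals. Ratios have exact conditional binomial and shares exact Clopper-Pearson 95% intervals. Intervals and limits of 3 counts cover counting error only. The 1.5-fold rule and the ratio interval were tested on Poisson UMI sums simulated for all epithelial cells. Filtering, clustering, naming, thinning and co-detection were not tested on simulated data. The software was scikit-learn 1.9.0, scipy 1.17.1, numpy 2.4.6 and pandas 2.3.3 in Python 3.11.15. Besides the 10 genes, the text names genes of the other list past 1.5-fold with a mean of at least 5 CPM, and the 2 genes most like each of the 9 that reached 5 CPM across clusters, apart from 1 that is not reported here; genes that lead clusters or serve as references were chosen after their values were seen. MicroRNA sequences were RefSeq's (GRCm38.p6). The 3′ UTRs and gene positions were those of GENCODE vM21 (GRCm38), in which 32158 of the 32285 gene identifiers were found; the sequence of the Nfatc1 matches is not reported here.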

Additional observations from a re-analysis of the deposited data

Results flagged for a closer look

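For 5 genes the ratio of the induced to the control library went past 1.5-fold in opposite directions in 2 classes of cells, with counting intervals on either side of 0. With 1 library per group these opposite directions were not tested. Lgr5 had a log2 ratio of -4.27 in hair matrix-like cells and of 2.80 in upper follicle-like cells. Lhx2 was at -1.96 and 0.74 in the same classes. Nfatc1 stood at -2.14 in hair matrix-like and at 2.27 in spinous epidermal-like cells, and Plet1 at -2.95 and 1.32. Shisa2 was at -1.59 in outer root sheath-like and at 0.91 in upper follicle-like cells. The hair matrix-like values rest on 3 Lgr5, 4 Nfatc1 and 4 Plet1 UMIs in 53 induced cells, and the hair matrix-like value of Plet1 and the upper follicle-like values of Lhx2 and Shisa2 changed sign under other settings. Nfatc1 in hair matrix-like cells was at -0.52 to -0.27, no longer past 1.5-fold, with doublets kept, without centring and at resolution 0.8.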

How the results depend on the processing

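No paired analysis was possible because each group was 1 library. Over all epithelial cells the 10 genes kept the sign of their log2 ratio under the 8 alternatives, except that Plet1 was at 0.49 with the 5 compared classes at equal weight. Of the other 9, Krt15, Lrig1, Lhx2 and Tbx1 stayed at least 1.5-fold lower under all 8. The hair matrix-like class was not found under the stricter filter. The count of genes lower by 1.5-fold was 5 with equal weight (12.3% of all genes) and 5 at a fold of 2 (6.47%), and 6 to 9 under the rest (13.5% to 29.2%). In basal epidermal-like cells 3 genes were lower without centring (11.3% of all genes), and 2 and 1 were higher under the stricter filter (added after the data were seen, 13.2%) and at resolution 2.5 (13.3%). In outer root sheath-like cells 1 gene was higher under the stricter filter (Plet1, 10.7% of all genes) and 1 without centring (Lgr5, 11.1%), near the share of all genes. In hair matrix-like cells 6 genes were lower (18.4% to 19.7% of all genes) and 1 higher (19.1% to 20.4%) with doublets kept, without centring and at resolution 0.8, and Plet1 reversed to 0.39 with doublets kept. In upper follicle-like cells 4 were lower and 2 higher under the stricter filter (15.4% and 8.75% of all genes), 3 and 2 without centring (14.1% and 8.47%), 2 and 1 with doublets kept (14.5% and 10.8%), and 2 and 1 at resolution 2.5 (17.7% and 8.42%). In those cells Shisa2 reversed to -0.027 under the stricter filter and Lhx2 to -0.36 at resolution 2.5; the cause was not tested. Shares of cells with a UMI moved with the thinning depth for every gene, by construction.

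Among pairs whose co-detection interval lay above 1 over all epithelial cells, 14 ratios were below 1 within outer root sheath-like cells, most with intervals that include 1. Of these the interval lay below 1 for Lgr6 and Lhx2 in the induced library (0.704 to 0.977). Of the control pairs, the ratio there was 0.904 for Lgr5 and Nfatc1, 0.988 for Nfatc1 and Tbx1 and 0.996 for Nfatc1 and Krt15. In the induced library it was 0.902 for Lgr5 and Lgr6, 0.970 for Lgr5 and Lrig1, 0.949 for Lgr5 and Nfatc1, 0.832 for Lgr6 and Lhx2, 0.978 for Lhx2 and Krt15, 0.905 for Lhx2 and Nfatc1, 0.974 for Lrig1 and Lhx2, 0.966 for Lrig1 and Shisa2, 0.885 for Lrig1 and Tbx1, 0.848 for Nfatc1 and Shisa2 and 0.884 for Nfatc1 and Tbx1. The other alternatives of the thinning depth reversed no pair. Few UMIs limit Cd34 and few induced cells the hair matrix-like class, and the spread between animals is not measured.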
